A study of Mus musculus with 8 samples.

Results

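The Snrpn domain, the mouse counterpart of the Prader-Willi region, was followed through every probe set that the platform annotation assigns to Snrpn, Snurf, Ndn, Magel2, Mkrn3, Peg12 or Ube3a. This gave 16 probe sets of the 45037 tested, for 7 of the 17413 genes that the annotation names. The domain was selected on the higher values of Snrpn and Snurf in the contrast described here, and its other genes by their place in it. Of the 16, 11 name 1 gene, 4 name Snrpn and Snurf together, and 1 names Ube3a with 3 unrelated or antisense genes. The samples were epidermis of mice aged 15 weeks, labelled as cells of the interfollicular epidermis, which covers the skin outside the hair follicles. In 4 of them G9a, the product of Ehmt2 that methylates lysine 9 of histone H3, had been removed by a conditional knockout (G9a cKO), and 4 were wild type for it (G9a WT). All 8 had received the carcinogen DMBA (0.25 mg/ml) and the tumour promoter TPA (0.02 mg/ml), 200 µl weekly on shaved back skin for 6 weeks from an age of 8 weeks, and were taken before tumours formed. The labels name neither the driver of the knockout nor the deleted part of Ehmt2.

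The domain lies on chromosome 7, and most of its genes are imprinted, that is, they are transcribed from the paternal copy while the maternal copy is kept silent. The start shared by Snurf and Snrpn lies in the imprinting centre of the region, which carries DNA methylation on the maternal copy. Snrpn encodes SmN, a core protein of splicing snRNPs that is most abundant in brain. Snurf encodes a small protein from the same bicistronic transcript. Ndn and Magel2 encode MAGE family proteins, Mkrn3 a makorin RING finger protein, and Peg12 a FRAT family protein that binds the kinase GSK3. Ube3a, a ubiquitin ligase, is maternal in neurons and is read from both copies in most other tissues. Loss of G9a is known to weaken silencing at some imprinted genes, and the comparison of cKO with WT asks how RNA of this domain stands when G9a is lost.

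Because the results turn on the Snurf and Snrpn transcript, its promoter windows are shown first, with those of Ndn and Ube3a for comparison. They are RefSeq windows of build GRCm38.p6 from 250 bases before to 50 bases after a start, written 5′ to 3′ on the transcribed strand, with CpG dinucleotides in capitals. RefSeq lists 4 starts for Snrpn, of which 1 is shared with Snurf (chr7:60005150-60005449, minus strand) and 3 lie upstream of it. The upstream window shown is the most distant (chr7:60450128-60450427, minus strand). The Ndn window is chr7:62348027-62348326 and the Ube3a window chr7:59228500-59228799, both on the plus strand.
Snurf and Snrpn, shared start: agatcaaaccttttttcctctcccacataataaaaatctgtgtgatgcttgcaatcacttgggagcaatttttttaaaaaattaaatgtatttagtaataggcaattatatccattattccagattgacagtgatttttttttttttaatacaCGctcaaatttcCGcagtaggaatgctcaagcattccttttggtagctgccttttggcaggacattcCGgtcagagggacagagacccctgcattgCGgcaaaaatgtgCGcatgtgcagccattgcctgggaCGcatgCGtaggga
Snrpn, most distant start: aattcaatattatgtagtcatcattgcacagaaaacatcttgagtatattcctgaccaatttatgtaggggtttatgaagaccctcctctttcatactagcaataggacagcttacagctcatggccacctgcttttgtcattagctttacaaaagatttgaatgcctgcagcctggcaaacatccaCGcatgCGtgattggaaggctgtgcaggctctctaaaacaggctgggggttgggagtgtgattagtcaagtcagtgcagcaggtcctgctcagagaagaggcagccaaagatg
Ndn: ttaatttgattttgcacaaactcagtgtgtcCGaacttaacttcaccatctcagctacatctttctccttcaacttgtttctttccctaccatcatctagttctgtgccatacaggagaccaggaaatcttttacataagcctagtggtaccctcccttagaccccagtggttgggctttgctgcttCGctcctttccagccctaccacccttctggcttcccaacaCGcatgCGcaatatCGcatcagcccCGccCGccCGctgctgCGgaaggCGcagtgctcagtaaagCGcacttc
Ube3a: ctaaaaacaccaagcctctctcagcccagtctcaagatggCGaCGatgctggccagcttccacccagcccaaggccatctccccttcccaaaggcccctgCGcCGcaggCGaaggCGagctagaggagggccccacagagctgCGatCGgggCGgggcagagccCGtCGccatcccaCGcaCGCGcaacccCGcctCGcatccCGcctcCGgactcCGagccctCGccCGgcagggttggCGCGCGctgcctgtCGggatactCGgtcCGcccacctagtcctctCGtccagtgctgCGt

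The shared window held 7 CpGs, more than 47.9% of the 32817 promoter windows, whose median was 7. The upstream Snrpn windows held 2 to 4. Those of Magel2, Ndn, Peg12 and Mkrn3 held 10, 11, 12 and 15, and that of Ube3a held 29, more than 87.1% of windows. The window ends 50 bases into the transcript, so CpGs further inside the imprinting centre are not counted. The letters CGCATGCG, which read the same on both strands and occur in the consensus of the transcription factor NRF1, were present once in each of the 4 Snrpn windows and once in that of Ndn, and in none of the other 4. They occur in 1.86% of all windows. This motif was chosen after the sequences were seen, and the upstream Snrpn windows are not independent of each other, since pairs of them share 18.7% to 34.9% of their 12-base words while none shares one with the start common to Snurf. The letters TGCCGC, the core bound by the imprint-keeping protein ZFP57 when methylated, were searched on both strands. They were found in 1 of the 9 windows of the members, the shared window, and in 11.6% of all windows. The count in the members is near that share, so nothing is read from it. Methylation and binding were not measured here.

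**Figure D1:**
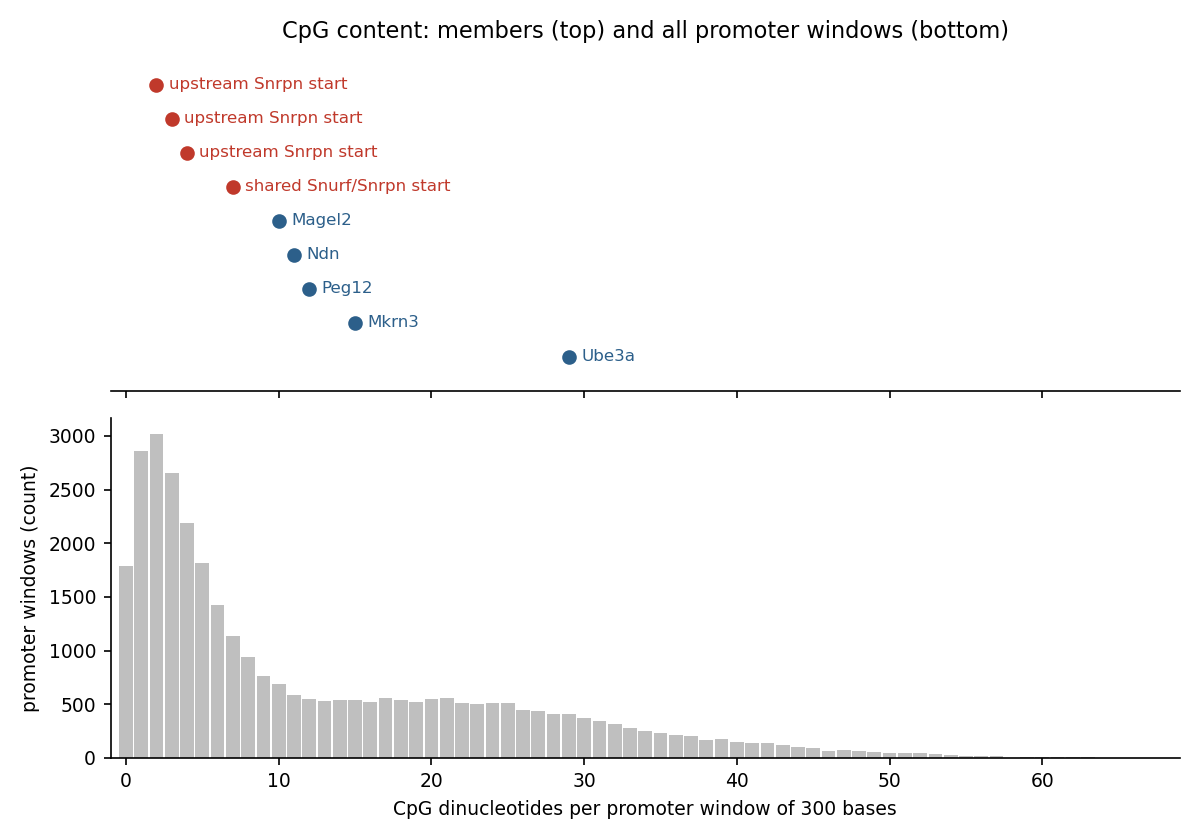
CpG dinucleotides in the 300-base promoter windows of the members (top, 1 point per window, Snrpn and Snurf in red, other members in blue) and in all 32817 windows (bottom, bars count windows). The Snrpn windows hold 2 to 7 CpGs, and that of Ube3a holds 29.

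RNA was read on 1-colour arrays as log2 values per probe set, with array medians of 5.72 to 5.80. Ehmt2 itself was lower in cKO at 1 of its 2 probe sets, 6.61 ± 0.36 against 9.49 ± 0.28 in WT (mean ± SD, n = 4 each), a difference of -2.88 (SE 0.19, limma adjusted p = 0.000244), while its other probe set did not differ beyond its error (0.01, SE 0.06). Over all probe sets 210 passed the threshold, an adjusted p under 0.05 in limma's moderated test with Benjamini-Hochberg adjustment, which is 0.466%. Of these 177 were higher in cKO (0.393%) and 33 lower (0.0733%). The second principal component parted the genotypes and the first did not: WT 4 stood at 23.49 on it, beyond the cKO arrays (-10.70 to 19.22), and cKO 2, at -10.70, stood next to the other WT arrays (-20.55 to -11.42). Leaving out both arrays, an alternative added after the data were seen, raised the number past the threshold to 657. Array weights gave 758, the upper 50% of probe sets gave 132, and the numbers without cKO 2, cKO 3, WT 1, WT 3 and WT 4 were 131, 108, 104, 112 and 356. The labels do not say whether the replicates are separate animals, so errors and p-values describe the spread between these samples. Keratinocyte genes stood high in every array, with a mean of 11.37 to 11.45 over 18 probe sets in cKO and 11.38 to 11.46 in WT, all 18 of them above the background gauge described further on.

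RNA of Snrpn and Snurf was higher in cKO, 2.20-fold to 3.24-fold at the 4 probe sets that passed the threshold. The other 5 genes had no probe set past it. These were 4 of the 16 probe sets, beside 0.466% of all probe sets. The domain was chosen with this contrast already known, so nothing is read from that share, and the differences of the members are given as descriptions without a test.

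Snrpn has 3 probe sets of its own. Probe set 1415895_PM_at read 8.60, 8.62, 8.83 and 8.59 in cKO 1 to 4 and 7.33, 7.77, 7.50 and 7.47 in WT 1 to 4. All 4 cKO arrays lay above all 4 WT arrays, with a gap of 0.82 between the lowest cKO and the highest WT array. Probe set 1415896_PM_x_at read 8.48, 8.63, 8.75 and 8.62 in cKO and 7.38, 7.63, 7.44 and 7.49 in WT. Here the gap was 0.86. The difference was 1.14 (SE 0.09, 95% interval 0.93 to 1.35), or 2.21-fold, at the first and 1.14 (SE 0.07, 0.98 to 1.30), or 2.20-fold, at the second. Both probe sets are annotated to the same RefSeq mRNA, so they are repeated readings of 1 transcript rather than separate evidence. The suffix _x_at marks a probe set whose probes may also bind other transcripts.

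The third Snrpn probe set, 1432096_PM_at, is built on another cDNA and read lower. It stood at 5.15, 5.05, 5.09 and 4.86 in cKO and 4.66, 4.86, 4.68 and 4.69 in WT. The groups met at 4.86, where cKO 4 and WT 2 read the same to 2 decimals. Its difference was 0.31 (SE 0.07, 95% interval 0.15 to 0.48), or 1.24-fold, and it did not pass the threshold (limma adjusted p = 0.154). It passed in 1 of 14 alternatives, that with array weights.

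The Snurf probe set, 1421063_PM_s_at, read 6.07, 6.32, 6.33 and 6.22 in cKO and 4.88, 4.98, 4.98 and 5.13 in WT. The groups were 0.94 apart, wider than the range within either of them. The difference was 1.24 (SE 0.07, 95% interval 1.08 to 1.41), or 2.37-fold. The suffix _s_at marks probes common to several transcripts. Since Snurf and Snrpn are read from 1 transcript, this set cannot separate the 2 genes.

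Of the 4 joint probe sets, 1435716_PM_x_at showed the widest separation of all members. It read 6.78, 6.82, 6.97 and 6.81 in cKO and 4.93, 5.39, 5.08 and 5.19 in WT, with a gap of 1.39. The difference was 1.70 (SE 0.09, 95% interval 1.49 to 1.91), or 3.24-fold. This interval lies above those of both 1415895_PM_at and 1415896_PM_x_at, which read the same arrays, so the size of the difference depends on the probe set. Probe set 1455890_PM_x_at read 5.45, 5.74, 5.56 and 5.72 in cKO and 5.15, 5.18, 5.32 and 5.15 in WT. Its groups were 0.13 apart and its difference was 0.42 (SE 0.07, 95% interval 0.25 to 0.58). It came close to the threshold without passing it (limma adjusted p = 0.0534). It passed in 3 of 14 alternatives: a prior with an intensity trend, array weights, and without cKO 1. The other joint sets, 1441905_PM_x_at and 1460075_PM_x_at, were low and overlapped between genotypes. The first read 3.45 to 3.60 in cKO and 3.38 to 3.54 in WT, and the second 3.66 to 3.90 and 3.64 to 3.86, with differences of 0.06 (SE 0.06) and 0.00 (SE 0.06).

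**Figure D2:**
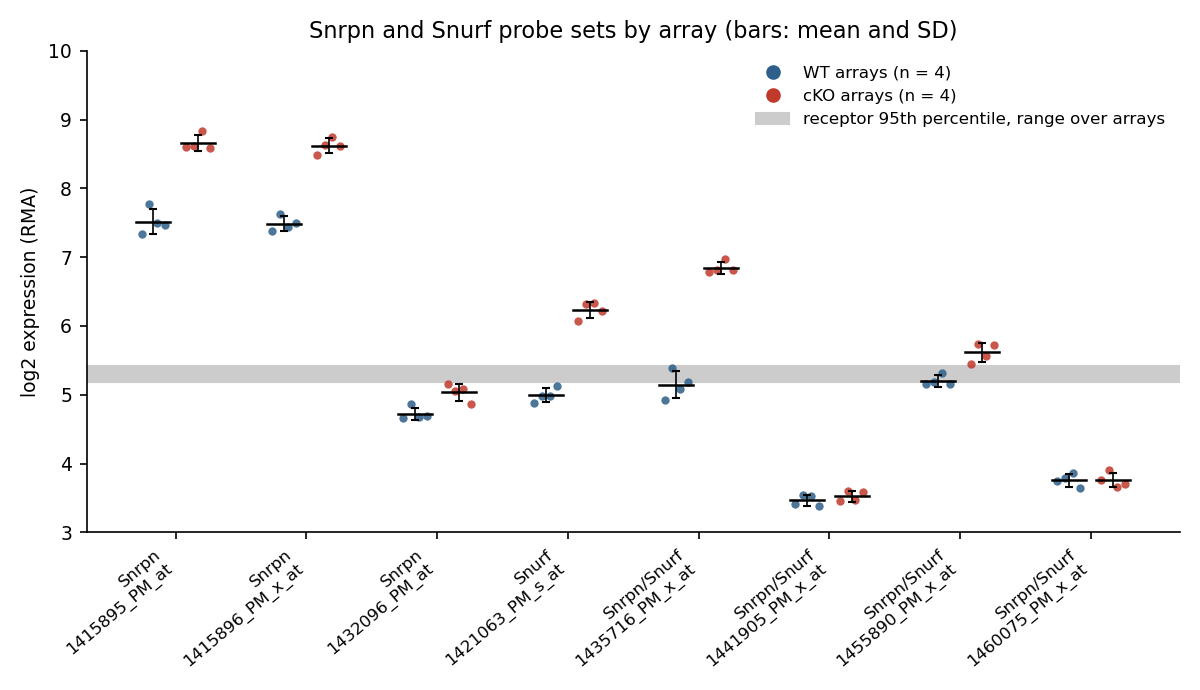
Log2 expression on each array at the 8 Snrpn and Snurf probe sets, WT in blue and cKO in red (4 arrays each), with the mean and SD in black. The grey band spans the 95th percentile of odorant and vomeronasal receptor probe sets over the arrays. At 4 probe sets the cKO arrays lie 0.82 to 1.39 above the WT arrays, and at 2 the groups overlap.

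Groups did not overlap at 6 of the 8 Snrpn and Snurf probe sets, against 4.89% of all probe sets, and again nothing is read from this share. The 6 include 1432096_PM_at, where the gap was 0.00 to 2 decimals. The 4 probe sets that passed also varied together among arrays of 1 genotype. After removal of the group means, the Pearson correlation over 8 arrays was between 0.36 and 0.94 in the 6 pairs, with a median of 0.78. Probe set 1455890_PM_x_at did not follow them: its correlations with the 4 were between -0.07 and 0.37, while it correlated at 0.83 with 1441905_PM_x_at and at 0.55 with 1460075_PM_x_at, the low joint sets. Array cKO 3 was the highest cKO array at all 4, and WT 2 was the highest WT array at 3 of the 4. The probe sets share their transcript and their arrays, so these values are descriptions, given without a p. Without cKO 2 and WT 4 the differences were 1.14, 1.14, 1.26 and 1.72 for 1415895_PM_at, 1415896_PM_x_at, 1421063_PM_s_at and 1435716_PM_x_at. Leaving out single arrays gave 1.08 to 1.22, 1.09 to 1.19, 1.21 to 1.30 and 1.63 to 1.78 in the same order.

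How far a probe set stands above background was gauged from 81 probe sets of odorant and vomeronasal receptors. These sensory genes were assumed, not shown, to be little expressed in epidermis. Their 95th percentile lay between 5.18 and 5.42 on the 8 arrays. Probe sets 1415895_PM_at and 1415896_PM_x_at of Snrpn lay above it on every array of both genotypes. The Snurf set lay above it on 4 of 4 cKO and 0 of 4 WT arrays, and 1435716_PM_x_at on 4 of 4 and 1 of 4. For these 2 sets most WT readings lay below the gauge, where a fold can understate a change. Sets 1432096_PM_at, 1441905_PM_x_at and 1460075_PM_x_at lay below it on all 8 arrays.

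The paternal genes on the far side of the domain, Ndn, Magel2, Mkrn3 and Peg12, were low in both genotypes and showed no separation. Each has 1 probe set, which lay below the receptor percentile on every array. Ndn, the gene of necdin, read 3.89, 3.86, 3.94 and 3.85 in cKO and 3.80, 3.92, 3.79 and 3.81 in WT, a difference of 0.05 (SE 0.05, 95% interval -0.05 to 0.15). Magel2, whose protein works with the ligase TRIM27 in endosomal sorting, read 4.85, 4.68, 4.84 and 4.74 in cKO and 4.66, 4.80, 4.72 and 4.77 in WT, a difference of 0.04 (SE 0.05, -0.08 to 0.16). In both genes the genotypes overlapped.

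Mkrn3, a gene that in humans restrains the onset of puberty, read 3.74, 3.53, 3.73 and 3.69 in cKO and 3.70, 3.70, 3.68 and 3.79 in WT, a difference of -0.05 (SE 0.06, 95% interval -0.17 to 0.08). Peg12 read 3.56, 3.49, 3.51 and 3.45 in cKO and 3.50, 3.62, 3.54 and 3.52 in WT, a difference of -0.04 (SE 0.05, -0.15 to 0.06). The genotypes overlapped at both. Levels below the gauge of background do not show that these 4 genes were silent or unchanged.

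Ube3a, which ends the domain on the other side, was well above background at 2 of its own 3 probe sets, and its genotypes overlapped. Probe set 1416680_PM_at read 7.70, 7.71, 7.66 and 7.70 in cKO and 7.73, 7.82, 7.78 and 7.69 in WT, a difference of -0.07 (SE 0.04, 95% interval -0.16 to 0.03). Probe set 1416681_PM_at read 7.62, 7.61, 7.47 and 7.46 in cKO and 7.58, 7.58, 7.64 and 7.50 in WT, a difference of -0.04 (SE 0.05, -0.16 to 0.09). The groups overlapped at both.

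The third Ube3a set, 1416682_PM_at, lay below the receptor percentile on all arrays. It read 4.54, 4.59, 4.64 and 4.76 in cKO and 4.75, 4.83, 4.79 and 4.71 in WT, a difference of -0.14 (SE 0.06, 95% interval -0.27 to -0.01), and cKO 4 lay within the WT range. The probe set shared with Srebf2, P3h3 and a transcript of the Snhg14 region read 6.78 to 7.00 in cKO and 6.72 to 7.07 in WT, a difference of 0.00 (SE 0.08), and cannot be assigned to Ube3a. Snhg14 runs antisense to Ube3a, and the labels do not say which strand the probes read, so that sense and antisense RNA cannot be told apart at these sets.

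**Figure D3:**
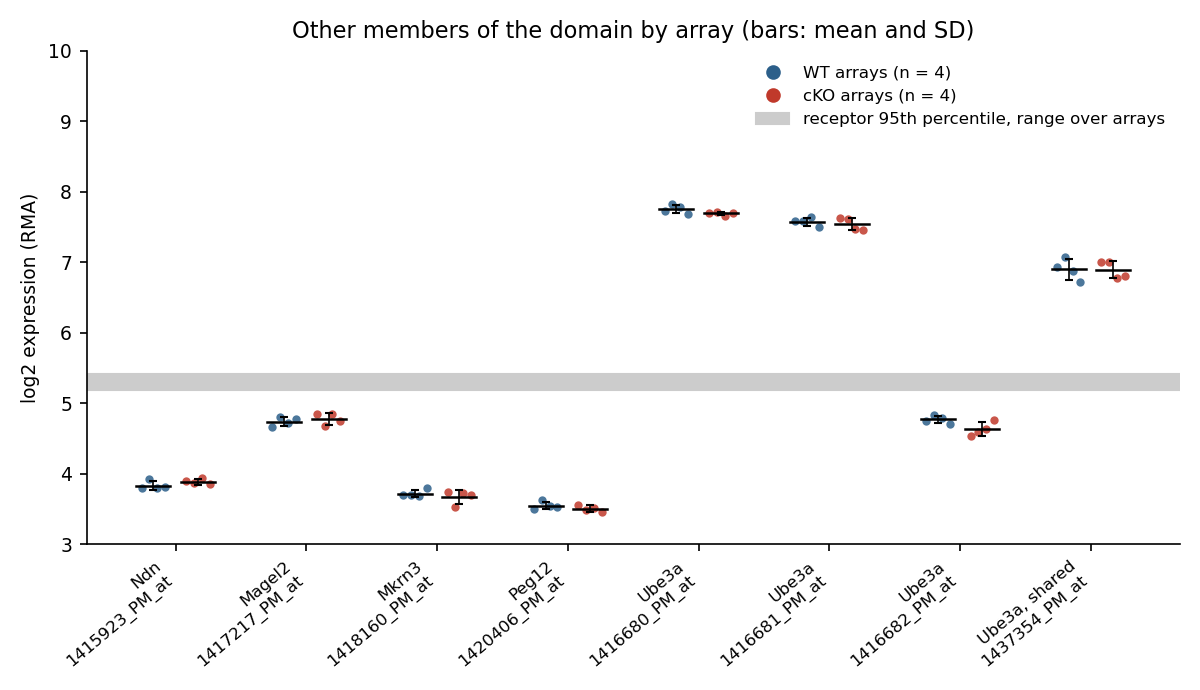
Log2 expression on each array at the 8 probe sets of Ndn, Magel2, Mkrn3, Peg12 and Ube3a, drawn as for Snrpn and Snurf. The first 4 genes lie below the grey band of the receptor 95th percentile, and WT and cKO arrays overlap at all 8 probe sets.

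Over the 8 probe sets of these 5 genes the differences ran from -0.14 to 0.05 with a median of -0.04, beside a median of 0.01 over all probe sets. The widest 95% bounds were -0.27 and 0.19. None passed limma's threshold, and 1 (1416682_PM_at) had an unadjusted p under 0.05, as did 7.98% of all probe sets. None of the 8 passed in any alternative tried, scalings and left-out arrays included. The 8 Snrpn and Snurf probe sets had a median difference of 0.78.

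Measured neighbours of Snrpn did not pass the threshold. Inside the interval from Ube3a to Peg12, RefSeq lists 252 entries, of which 206 are small nucleolar RNAs. Besides the members, 5 genes with probe sets were found there, all long noncoding RNAs: Snhg14, Ipw, A230006K03Rik, B230209E15Rik and A330076H08Rik. The 3 named last were listed after the values were seen. None of the 8 probe sets of these 5 genes passed limma's threshold, and 1 gene had a probe set with an unadjusted p under 0.05, as did 12.3% of all genes with a probe set of their own, the share to set beside the counts of this kind that follow. In both genotypes all 8 lay below the receptor percentile on every array. Snhg14, the host of snoRNAs and antisense to Ube3a, read 3.84 ± 0.09 in cKO and 3.67 ± 0.10 in WT, a difference of 0.17 (SE 0.07, limma adjusted p = 0.520), with overlapping groups. Ipw, a noncoding RNA next to the Snord116 snoRNAs, read 4.15 ± 0.09 and 4.13 ± 0.06 (0.02, SE 0.06, limma adjusted p = 0.984).

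Of 18 listed genes that flank the interval, 13 were measured with 25 probe sets and none had a probe set past limma's threshold, against 0.76% of all genes. At an unadjusted p under 0.05 there were 4 of the 13 genes, beside 12.3% of all genes, and 4 of the 25 probe sets, beside 7.98% of all probe sets. Their median difference was 0.01. The furthest was Nipa2, a magnesium transporter gene, at -0.33 (SE 0.11, limma adjusted p = 0.400). The deubiquitinase gene Otud7a stood at 0.17 (SE 0.06, limma adjusted p = 0.479), and Atp10a, a phospholipid flippase gene next to Ube3a, ranged over 4 probe sets down to -0.14 (SE 0.13, limma adjusted p = 0.917). The GABA receptor genes Gabra5 and Gabrg3, the pigmentation gene Oca2 and the ligase gene Herc2 were among those that did not pass.

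**Figure D4:**
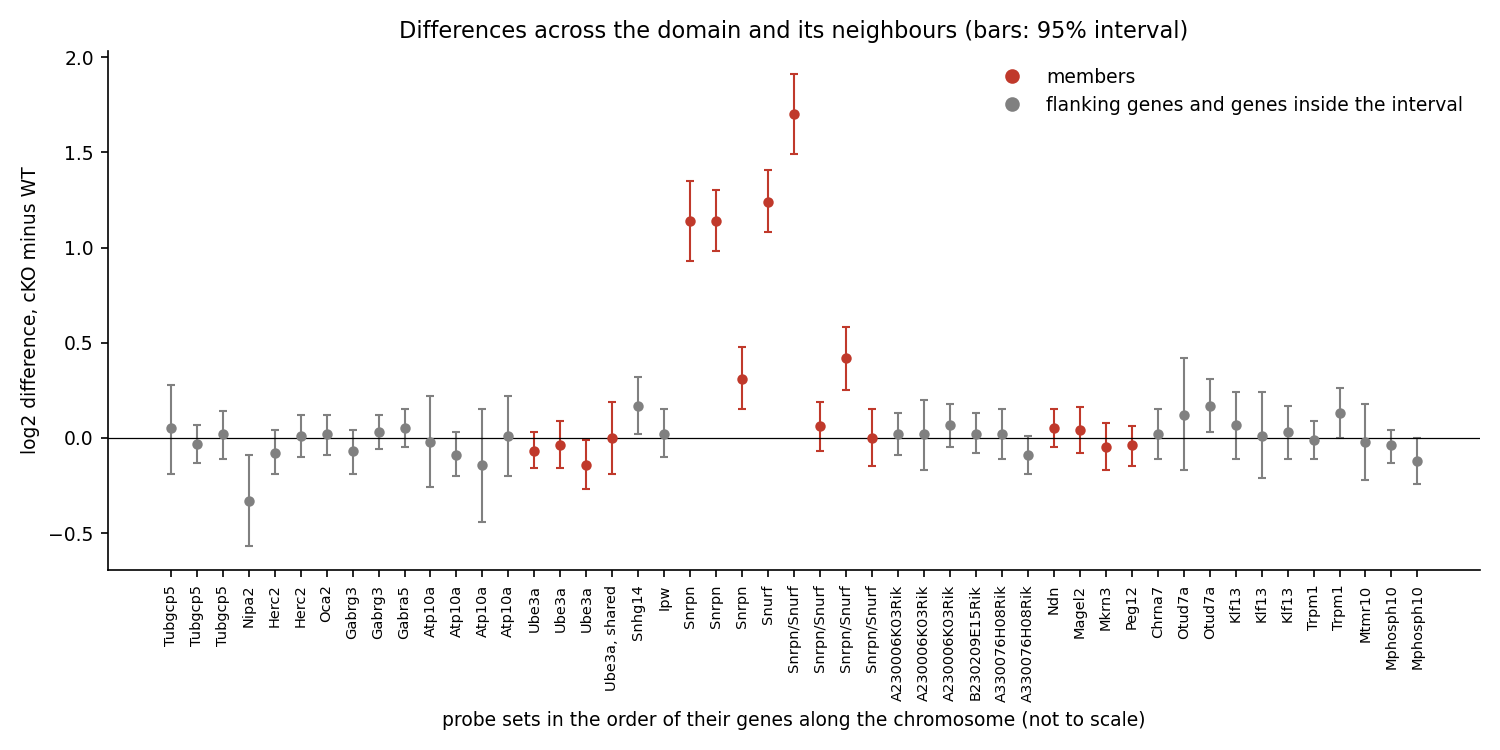
Log2 difference, cKO minus WT, with its 95% interval for the probe sets of the members (red) and of flanking and interval genes (grey), in the order of the genes along the chromosome, not to scale; Snrpn and Snurf overlap. Differences of 1.14 to 1.70 stand at 4 Snrpn and Snurf probe sets, while the other 5 members lie between -0.14 and 0.05.

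Genes that work with the members' proteins were followed as lists. None of the 7 Sm core proteins passed limma's threshold and none had an unadjusted p under 0.05; the furthest was Snrpg at 0.11 (SE 0.08, limma adjusted p = 0.876). Snrpb, which encodes the close relative of SmN used in most tissues, read 10.21 ± 0.04 in cKO and 10.17 ± 0.09 in WT (0.04, SE 0.05, limma adjusted p = 0.958). Over 11 probe sets the Sm genes had a median difference of 0.04. Of the SMN complex, which loads Sm proteins onto snRNA, 11 genes were measured and none passed, 1 with an unadjusted p under 0.05; the furthest was Strap at -0.16 (SE 0.06, limma adjusted p = 0.473). Of 17 other U snRNP genes none passed, 1 with an unadjusted p under 0.05; the furthest was Snrpa1 at -0.17 (SE 0.06, limma adjusted p = 0.428).

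Among 6 measured relatives of Ndn and Magel2 in the MAGE family, none passed over all probe sets, but Mageh1 came close. Mageh1 read 5.40 ± 0.08 in cKO and 5.08 ± 0.07 in WT, a difference of 0.32 (SE 0.06, limma adjusted p = 0.0559), and its groups did not overlap. It passed in the gene table with 1 probe set per gene (limma adjusted p = 0.0338), where 0.977% of genes passed, with array weights (0.39, adjusted p = 0.00918), without WT 4 (0.35, adjusted p = 0.0418) and without both cKO 2 and WT 4 (0.37, adjusted p = 0.0414). Of the 6 it alone had an unadjusted p under 0.05. Magef1 stood at -0.11 (SE 0.12, limma adjusted p = 0.940) and Maged1 at 0.09 (SE 0.10, limma adjusted p = 0.943). None of the 11 measured partners of MAGEL2 and necdin passed, 1 with an unadjusted p under 0.05; the furthest were Washc2, of the WASH complex on endosomes, at -0.18 (SE 0.12, limma adjusted p = 0.833) and E2f1, a cell cycle factor bound by necdin, at -0.15 (SE 0.13, limma adjusted p = 0.897).

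The 8 makorin, FRAT and GSK3 pathway genes likewise held none past limma's threshold and none with an unadjusted p under 0.05, although Frat2, a relative of Peg12, stood at -0.35 (SE 0.20, limma adjusted p = 0.767). Of 8 measured UBE3A partners none passed, 1 with an unadjusted p under 0.05. Ube2d2a, an E2 enzyme gene, stood at 0.28 (SE 0.16) and 0.19 (SE 0.06) at 2 of its probe sets, with limma adjusted p of 0.770 and 0.332. Its other probe sets stood between -0.05 and 0.03. In the list of genes that keep imprints, 1 of 16 measured passed, Ehmt2 itself, and 2 had an unadjusted p under 0.05. The furthest after Ehmt2 was Arid4b, a chromatin gene, at 0.36 (SE 0.20, limma adjusted p = 0.757) at 1 of its 5 probe sets and -0.02 to 0.14 at the others. Uhrf1, which brings DNMT1 to newly copied DNA, stood at -0.20 (SE 0.10, limma adjusted p = 0.684) and, at its other probe set, -0.11 (SE 0.11). Dnmt1 stood at -0.12 (SE 0.05, limma adjusted p = 0.581). The H3K9 methyltransferase gene Setdb1 stood at -0.15 (SE 0.11, limma adjusted p = 0.857) and, at its other probe set, 0.05 (SE 0.08).

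Snrpn is most abundant in neurons, so markers of nerve and other cell types were read beside it. In bulk samples, fewer cells of a type and less RNA per cell cannot be told apart. Of 12 measured nerve and Schwann cell genes none passed limma's threshold and none had an unadjusted p under 0.05. Their mean over 24 probe sets was 4.65 to 4.71 in cKO and 4.64 to 4.70 in WT, and 18 of the 24 lay below the receptor percentile on every array. The furthest was Elavl3, a neuronal RNA-binding protein gene, with 4.90 ± 0.11 in cKO and 4.74 ± 0.15 in WT at 1 of its 3 probe sets (0.15, SE 0.08, limma adjusted p = 0.749), and 0.07 and 0.00 at the others. Tubb3, a neuronal tubulin gene, read 5.59 ± 0.06 and 5.72 ± 0.13 (-0.14, SE 0.07, limma adjusted p = 0.700). Snap25, a synaptic gene, read 3.62 ± 0.06 in cKO and 3.53 ± 0.04 in WT (0.09, SE 0.05, limma adjusted p = 0.727). Over all 6 lists of other cell types, 56 genes were measured and none passed. An unadjusted p under 0.05 was found at 6 of the 56 genes, beside 12.3% of all genes, and at 7 of 88 probe sets, beside 7.98% of all probe sets. The list medians lay between 0.00 and 0.05. The fibroblast mean was 5.45 to 5.67 in cKO and 5.55 to 5.61 in WT, and that of immune cells 5.28 to 5.55 and 5.08 to 5.47. The furthest were Cd74, of antigen presentation, at 0.49 (SE 0.32, limma adjusted p = 0.814), Fbln1, a matrix protein of fibroblasts, at -0.45 (SE 0.13, limma adjusted p = 0.325), which passed with array weights (-0.58, adjusted p = 0.0469), and Acta2, the smooth muscle actin, at 0.41 (SE 0.11, limma adjusted p = 0.248), which passed with array weights (0.47, adjusted p = 0.0499) and without WT 2 (0.52, adjusted p = 0.0415).

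The probe sets most like Snrpn over the 8 arrays, by Pearson correlation with 1415895_PM_at, were those of Ccdc91 (r = 0.995), Gpa33 (0.992), Iqca (0.991), G730013B05Rik (0.991) and Fyn (0.990). Such values follow mainly from 2 separated groups of 4 arrays, and the arrays are shared, so they describe a likeness of pattern and carry no p. Ccdc91, whose protein acts in transport from the Golgi, read 8.12 ± 0.07 in cKO and 7.31 ± 0.10 in WT, and Fyn, a Src family kinase gene, 6.98 ± 0.02 and 6.52 ± 0.10. The surface antigen gene Gpa33 read 8.25 ± 0.26 and 5.33 ± 0.36. At all 5, WT 2 was the highest WT array, as at 1415895_PM_at, which their selection by likeness to that probe set favours. Members were left out of the search, and none of the 5 genes is among the flanking genes.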

How the data were processed

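RNA of 8 epidermis samples, 4 G9a cKO and 4 G9a WT, was extracted with TRIzol, and 25 ng were amplified in 17 cycles and labelled with biotin, per the labels. The deposited log2 expression values came from RMA run by the authors, as the submitters' processing notes name it; the base is inferred from their range of 3.06 to 13.2. After 104 control probe sets were left out, 45037 were tested; the platform annotation gives 1 gene for 28898, several for 551 and none for 15588. Current symbols of 28689 came, by Entrez number, from a RefSeq gene table (GRCm38.p6).

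The cKO and WT groups were compared by limma's lmFit and eBayes (limma 3.58.1, R 4.3.3). Tests were two-sided, and p-values were adjusted by Benjamini-Hochberg over all probe sets, with a threshold of 0.05. Errors and 95% intervals of differences come from this fit, and no list was tested as a set. The arrays give no read depth; their number, 4 per group, limits the precision. In 5 simulated runs over 45037 probe sets for cKO against WT, each with 200 changed, 70.8% of changes of 0.5 (log2), 94.6% of those of 1 and 100% of those of 2 were recovered, and 4.75% of calls were false. These runs drew each value independently from a normal distribution with the mean and SD of its probe set. They held no outlying arrays and no correlation between probe sets, so these shares need not hold for the real arrays.

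The members and lists were chosen with earlier results of these data known. Every member probe set is described; of each list up to 4 genes are named, those past the threshold first and then by size, and of pattern likeness the 5 closest; any measured gene of the flanking list could be named. Genes named outside this rule were chosen after their values were seen: Snrpb, Snap25, Dnmt1 and the interval genes other than Snhg14 and Ipw. Alternatives were a replicate block, a filter on dim probe sets, median centring, cyclic loess, a prior with trend, array weights, a gene table, another threshold and leaving out arrays. Plots were drawn with matplotlib 3.10.9.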

Additional observations from a re-analysis of the deposited data

Results flagged for a closer look

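In 3 of 32 groups of 4 arrays over the 16 member probe sets, 1 array stood far from the other 3. Chance gives this in about 1 of 20 independent groups. These groups share their arrays, and several probe sets read the same transcript, so the count cannot show an excess over chance. At Snrpn probe set 1415895_PM_at, cKO 3 read 8.83 while the other cKO arrays read 8.59 to 8.62. At Snrpn probe set 1432096_PM_at, WT 2 read 4.86 and the other WT arrays 4.66 to 4.69. At the Ndn probe set, WT 2 read 3.92 and the other WT arrays 3.79 to 3.81. Without cKO 3 the 1415895_PM_at difference was 1.08, against 1.14 with all arrays. Without WT 2 the difference was 0.36 against 0.31 at 1432096_PM_at and 0.08 against 0.05 at Ndn.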

How the results depend on the processing

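Each of the 237 alternative values of member differences lay within 1 SD of the main value. For many of them this was fixed beforehand, so it does not show robustness. Leaving out 1 of 4 arrays cannot move a group mean by 1 SD of that group. A replicate block, the filter on dim probe sets, a prior with trend and the gene table leave a difference unchanged. The number of member probe sets past the threshold was 3 to 6 against 4. The filter on dim probe sets removed 1421063_PM_s_at, which passes without the filter. It also removed member probe sets that do not pass in the main fit, among them those of Ndn, Magel2, Mkrn3 and Peg12. Over all probe sets the number past the threshold, 210, was 132 in the upper 50% of probe sets, 758 with array weights, 343 at a threshold of 0.1, 657 without both cKO 2 and WT 4, and 104 to 356 when single arrays were left out. The number of list genes past it, 1 (Ehmt2), was 4 with array weights, 2 without both cKO 2 and WT 4, and 1 to 2 without single arrays; in the gene table the 1 gene was Mageh1, since the Ehmt2 probe set that represents the gene there is the one without a difference. The cause of the other shifts was not tested. With the replicate number as a replicate block 175 probe sets passed, and 4 member probe sets and 1 list gene did. The numbers share no stated litter or day, and deviations of same-numbered arrays correlated between -0.62 and 0.37, so they were not treated as pairs. Of member probe sets, 5 lay above the receptor percentile on every array, and 6 did with the 90th percentile and 5 with the 99th. Signal near background limits Ndn, Magel2, Mkrn3 and Peg12 most.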
